A study of Mus musculus with 16 samples.

Results

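The Gata family comprises 6 genes, Gata1 to Gata6, that encode zinc finger transcription factors binding the GATA motif. The genes were taken by name, and the peaks assigned to them were those that overlapped the gene or lay within 5 kb of it in the GENCODE annotation of mm9 (NCBIM37). The family thus makes up 6 of the 22208 protein-coding genes on chromosomes 1 to 19 and X. It received 11 of the 4992 peaks listed for Jarid2 and 16 of the 4502 peaks listed for Jarid2-K116me2, the form of Jarid2 dimethylated at the lysine named K116.

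Both antibodies were used on chromatin of E14 ESC, a line of mouse embryonic stem cells kept in serum and LIF, with 1 sample per antibody and an input. In addition, H3K27me3 peaks were listed for 3 lines that all lack the endogenous Jarid2 gene: Jarid2 -/- ESC (KO), the same cells rescued with a bacterial artificial chromosome (BAC) carrying Jarid2 (WT), and the same cells rescued with a BAC carrying Jarid2 in which this lysine is an alanine (K116A). Each line was analysed as undifferentiated ESC and as embryoid bodies (EBs) formed by the hanging drop method after 8 days without LIF, with 2 biological replicates per group and thus 12 libraries. The WT line is a rescue and not an unmodified parental line, and whether a rescued line stems from 1 clone is not given in the sources used here. The deletion itself could not be checked in peak lists, since no Jarid2 ChIP of the 3 lines was analysed here.

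Jarid2 is a cofactor of the Polycomb complex PRC2, which methylates lysine 27 of histone H3, and H3K27me3 marks genes that are silent in ESC but are used later in development. Within the family, Gata1, Gata2 and Gata3 are known for roles in blood: Gata1 drives erythroid and megakaryocytic maturation, Gata2 maintains haematopoietic stem and progenitor cells, and Gata3 specifies T cells and also acts in trophoblast. Gata4, Gata5 and Gata6 are known for roles in heart and endoderm, and Gata6 in particular is needed for primitive endoderm. RNA measurements of the same lines are not among the files analysed here, so nothing is said about expression. Peaks were also examined at 8 genes of the pluripotent state. Pou5f1, Nanog, Zfp42, Klf4, Sox2, Tdgf1 and Dppa5a had no Jarid2 peak, and Esrrb had 1 with a score of 2868. Among all protein-coding genes, 18.1% had a Jarid2 peak. Few peaks would thus be counted in any list of 8 genes, and the cell state is not checked by this count.

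The sequences just upstream of the annotated starts are shown first, because most starts covered by Jarid2 differed from those not covered in their content of CpG dinucleotides. Starts of protein-coding transcripts closer than 500 bp were joined and numbered along the gene from the most upstream, which gave 13 starts over the 6 genes. Each line below gives the 150 bases (mm9, sense strand, 5′ to 3′) that end just before the start, with each CG in capitals. The lines belong to chrX:7555198-7555347 on the minus strand (Gata1), chr6:88143735-88143884 and chr6:88148508-88148657 on the plus strand (Gata2), chr2:9811662-9811811 on the minus strand (Gata3), chr14:63889962-63890111 and chr14:63864109-63864258 on the minus strand (Gata4), and chr2:180069405-180069554 on the minus strand (Gata5).
Gata1 start 1: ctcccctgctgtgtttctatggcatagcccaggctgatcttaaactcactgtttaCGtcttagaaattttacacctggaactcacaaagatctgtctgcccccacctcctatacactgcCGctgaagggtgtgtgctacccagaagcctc
Gata2 start 1: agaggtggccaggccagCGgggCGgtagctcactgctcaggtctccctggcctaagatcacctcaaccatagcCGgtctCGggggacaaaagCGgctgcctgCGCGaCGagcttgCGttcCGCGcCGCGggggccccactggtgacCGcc
Gata2 start 2: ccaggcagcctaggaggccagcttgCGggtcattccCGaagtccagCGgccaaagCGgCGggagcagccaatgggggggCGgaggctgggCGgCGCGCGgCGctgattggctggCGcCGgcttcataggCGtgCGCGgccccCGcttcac
Gata3 start 1: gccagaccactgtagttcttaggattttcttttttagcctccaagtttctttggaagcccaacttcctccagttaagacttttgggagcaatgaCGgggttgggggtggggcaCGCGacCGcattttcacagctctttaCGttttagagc
Gata4 start 2: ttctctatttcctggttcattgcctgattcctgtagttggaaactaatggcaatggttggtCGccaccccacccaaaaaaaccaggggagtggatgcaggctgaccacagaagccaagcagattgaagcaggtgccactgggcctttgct
Gata4 start 3: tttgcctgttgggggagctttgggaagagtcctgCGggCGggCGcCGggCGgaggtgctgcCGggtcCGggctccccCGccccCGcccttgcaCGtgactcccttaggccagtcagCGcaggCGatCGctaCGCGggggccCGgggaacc
Gata5 start 1: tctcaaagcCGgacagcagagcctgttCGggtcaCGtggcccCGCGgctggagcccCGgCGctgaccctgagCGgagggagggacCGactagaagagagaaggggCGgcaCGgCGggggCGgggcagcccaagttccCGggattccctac
The stretch of Gata1 held 2 CG, and that of the second start of Gata4 held 1. By contrast, 14 and 17 CG were found at the starts of Gata2, 16 at start 3 of Gata4 and 14 at Gata5. Start 1 of Gata3 held 5. Further stretches at starts under no Jarid2 peak, not printed above, held 2 (Gata1 start 2), 3 (Gata1 start 3), 5 (Gata4 start 1) and 4 (Gata4 start 4). The covered start 1 of Gata3 thus had the same count as the uncovered start 1 of Gata4.

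Gata1, on chromosome X (7536386 to 7555197, minus strand, ENSMUSG00000031162.8), had no peak in any of the 14 lists. It thus stood apart from the other 5 genes, which all carried peaks of both antibodies. Among all protein-coding genes, 18.1% had a Jarid2 peak, 16.0% a Jarid2-K116me2 peak and 15.8% peaks of both. The annotated neighbours of Gata1, Hdac6 at 11.4 kb and Glod5 at 26.1 kb, had no Jarid2 peak either. The peak maps of the 6 genes show these domains side by side.

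**Figure D1:**
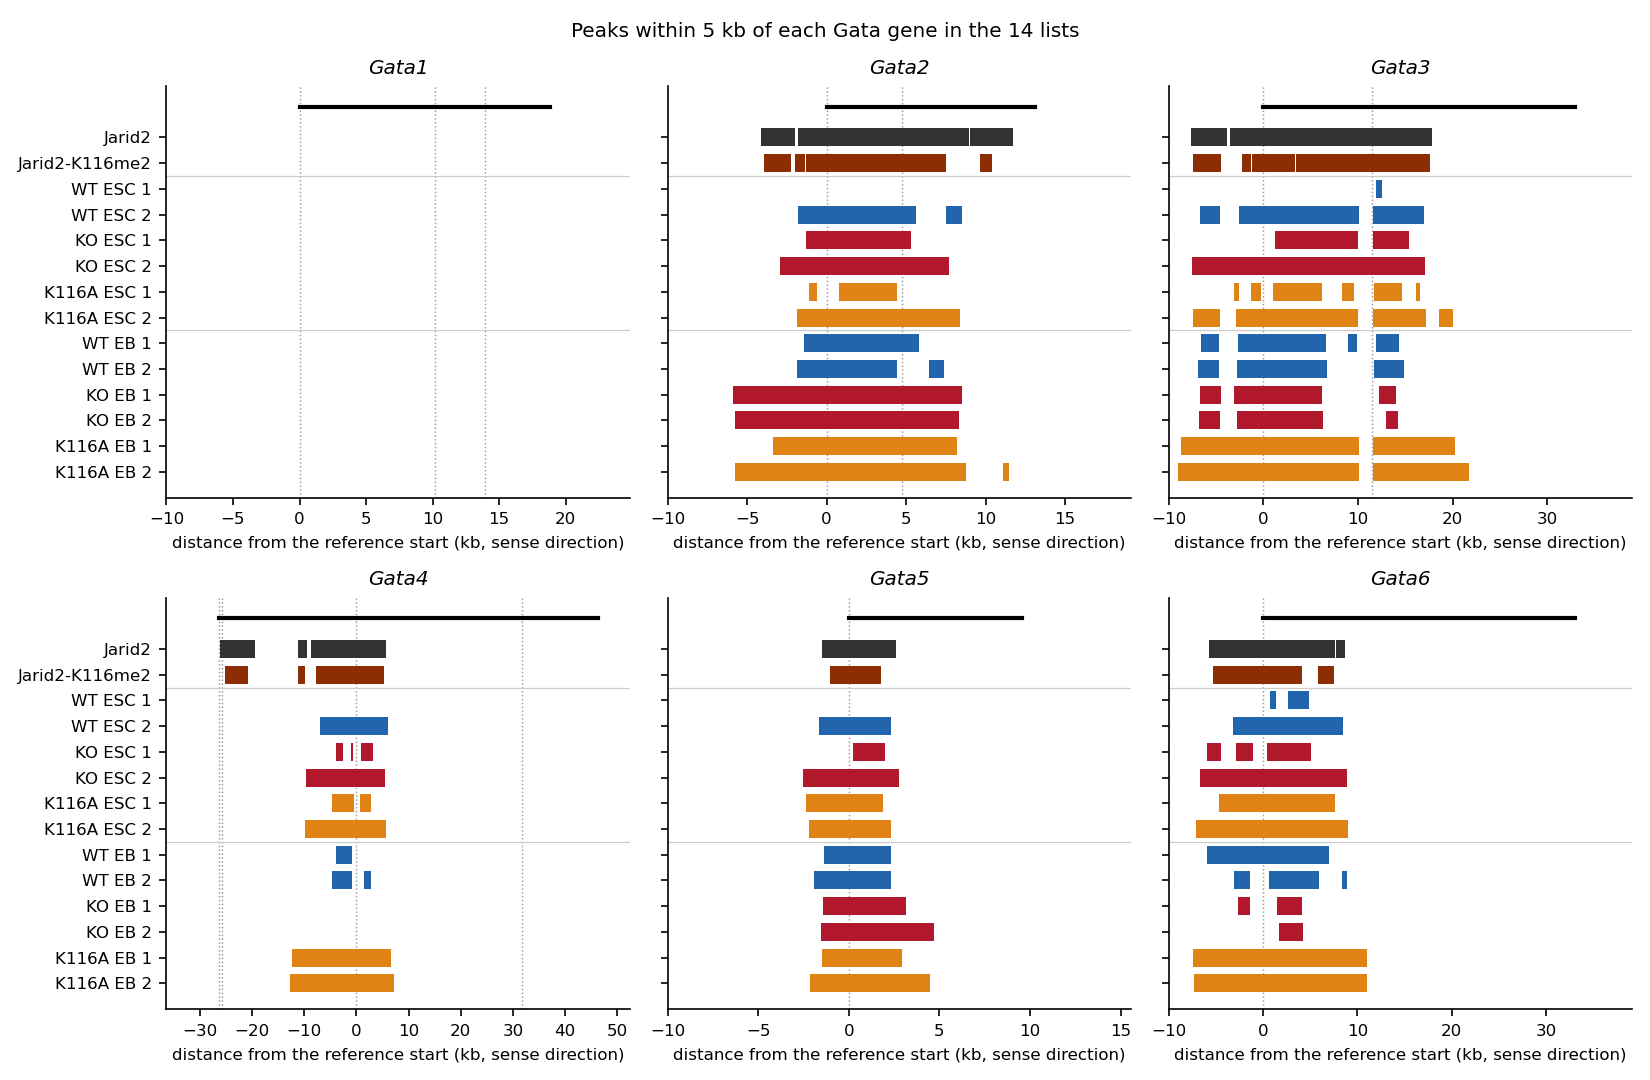
Peaks assigned to each Gata gene in the Jarid2 and Jarid2-K116me2 lists and in the 12 H3K27me3 lists (rows), by distance in kb from the annotated start with the most protein-coding transcripts, positive in the sense direction. The black bar is the gene, dotted lines are annotated starts and each coloured bar is a peak: Gata1 had none, and the domain over the third start of Gata4 was absent from both KO EB libraries and 18.9 and 19.8 kb wide in the K116A EB libraries.

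Gata2, on chromosome 6 (88143885 to 88157024, plus strand, ENSMUSG00000015053.8), carried 3 Jarid2 peaks that lay almost end to end. The central peak was 10764 bp wide, had a score of 3100 and covered both annotated starts, which are 4.77 kb apart. The score is minus 10 times the log10 of the peak's p-value as the peak caller wrote it, and the value 3100, shared by 719 of the 4992 Jarid2 peaks, does not rank the peaks that have it. The flanking peaks were 2118 bp wide upstream (score 995) and 2675 bp wide within the gene (score 544). The 4 Jarid2-K116me2 peaks lay in the same stretch, but only 29.2% of the peak within the gene was overlapped by a Jarid2-K116me2 peak, against 86.1% of the central peak.

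Gata3, on chromosome 2 (9778705 to 9811661, minus strand, ENSMUSG00000015619.9), carried the widest Jarid2 peak of the family. This peak spanned 21408 bp (score 3100) from -3.56 to 17.8 kb relative to the first start (negative values lie upstream), and covered both starts. A peak of 3808 bp (score 1804) lay farther upstream. The Jarid2-K116me2 list broke the wide domain into 3 peaks of 14138, 4567 and 1027 bp, nearly without gaps, and had 1 upstream peak of 2996 bp. The models 4930412O13Rik and 9230102O04Rik overlap the Gata3 gene, so that their peaks are those of Gata3.

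Gata4, on chromosome 14 (63817759 to 63890529, minus strand, ENSMUSG00000021944.8), is the longest gene of the family, with 72.8 kb and 4 starts. Its Jarid2 peaks fell into separate domains. The main peak (14352 bp, score 3100) covered the third start, from which more annotated protein-coding transcripts of the gene begin than from any other, and a peak of 1741 bp (score 589) lay from -11.2 to -9.45 kb relative to this start. A distal peak of 6630 bp (score 2956.5) reached from -26.1 to -19.5 kb relative to it, and covered the second start. The matching Jarid2-K116me2 peak was 4286 bp wide (score 2100) and did not reach the second start, so that this start was the only 1 of the 13 under a Jarid2 peak but not under a Jarid2-K116me2 peak. The first and the fourth start lay under neither.

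Gata5, on chromosome 2 (180059838 to 180069404, minus strand, ENSMUSG00000015627.4), carried 1 peak for each antibody, 4077 bp wide for Jarid2 and 2862 bp for Jarid2-K116me2, both with a score of 3100 and both over its start. Gata6, on chromosome 18 (11052508 to 11085633, plus strand, ENSMUSG00000005836.8), carried a Jarid2 peak of 13421 bp (score 3100) from -5.75 to 7.67 kb relative to its start. A further Jarid2 peak of 957 bp (score 115.62) lay between 7.75 and 8.71 kb downstream of the start. It was the only Jarid2 peak of the family that no Jarid2-K116me2 peak overlapped, and it had the lowest Jarid2 score of the 11. In all, 10 of 11 Jarid2 peaks overlapped a Jarid2-K116me2 peak by at least 1 bp, and 16 of 16 did in the other direction. Genome-wide, the share was 79.1% for Jarid2 and 98.7% for Jarid2-K116me2, which is the background for these counts. When an overlap of 50% of each peak was required, 8 of the 11 Jarid2 peaks still had a partner. Of the others with a smaller overlap, the main Gata4 peak was matched by 3 Jarid2-K116me2 peaks, and the peak within Gata2 by 1 that covered 29.2% of it.

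The lengths covered by Jarid2 peaks, within the gene and 5 kb on either side, were 15.6 kb for Gata2, 22.6 kb for Gata3, 22.7 kb for Gata4, 4.08 kb for Gata5 and 13.6 kb for Gata6. The median over the 4025 protein-coding genes with a Jarid2 peak was 2.32 kb, and 95% of these genes lay below 10.7 kb. Gata4 and Gata3 ranked 22nd and 23rd of 4025, Gata2 68th and Gata6 108th, whereas Gata5 ranked 893rd. The order was nearly the same for Jarid2-K116me2, with 20.2 kb for Gata3, 18.7 kb for Gata4, 11.97 kb for Gata2, 10.8 kb for Gata6 and 2.86 kb for Gata5. The Jarid2-K116me2 length was between 70.2% (Gata5) and 89.6% (Gata3) of the Jarid2 length, and the median over the 3512 genes with both was 81.4%. Without replicates, no difference between the antibodies or between genes could be tested. Longer genes offer more sequence to cover, and the gene lengths ranged from 9.57 kb for Gata5 to 72.8 kb for Gata4.

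**Figure D2:**
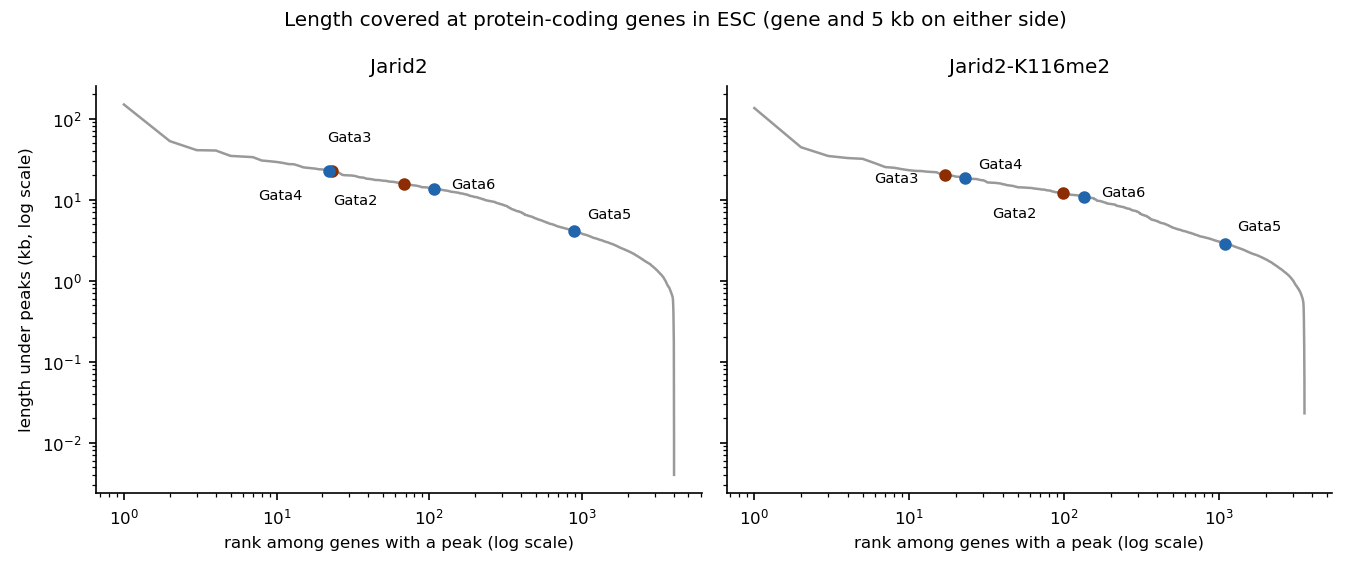
Length under Jarid2 (left) and Jarid2-K116me2 peaks (right) for each protein-coding gene with a peak, in kb on a log scale, against its rank on a log scale, with Gata2 and Gata3 in brown and Gata4 to Gata6 in blue. Gata3 and Gata4 lie next to each other near the upper end in both panels, and Gata5 lies far to the right at 4.08 and 2.86 kb.

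Set side by side, the genes known from blood and those known from heart and endoderm received similar totals. Gata1 to Gata3 held 5 Jarid2 peaks over 38.1 kb, all at Gata2 and Gata3, and Gata4 to Gata6 held 6 over 40.4 kb. For Jarid2-K116me2 the totals were 8 peaks over 32.2 kb and 8 peaks over 32.4 kb. Genes are not replicates of a group, so no test was made. Within each trio 1 gene stood well below the others, Gata1 with no peak and Gata5 with 4.08 kb.

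The 13 starts separated by CpG content, measured as observed over expected CpG within 500 bp on either side. The values were 0.306, 0.229 and 0.133 at the 3 starts of Gata1. They were 0.767 and 0.68 at Gata2, 0.481 and 0.638 at Gata3, 0.692 at Gata5 and 0.656 at Gata6. At the 4 starts of Gata4, from the most upstream, they were 0.174, 0.173, 0.661 and 0.15. All 6 starts at or above 0.6 lay under a Jarid2 peak, whereas among the 6 starts below 0.4 only the second start of Gata4 did. Over all protein-coding genes, 10.6% of the starts lay under a Jarid2 peak. Of these, 71.3% were at or above 0.6, against 33.2% of the starts under none. Most starts at or above 0.6 thus lay under no Jarid2 peak. Over all 31117 starts of protein-coding genes, the median was 0.7 for the 3311 under a Jarid2 peak and 0.353 for the others. The distal Gata4 peak thus covered a start with a value well below the median of covered starts. The motif AGATAA, searched on both strands within 1 kb on either side of a start, was present at 7 of the 13 starts, against 58.3% of all starts, and at 4 of the 8 under a Jarid2 peak, against 40.2% of all starts under one. The start of Gata6 had 4 matches, the largest number among the 13, and the median over all starts was 1.

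**Figure D3:**
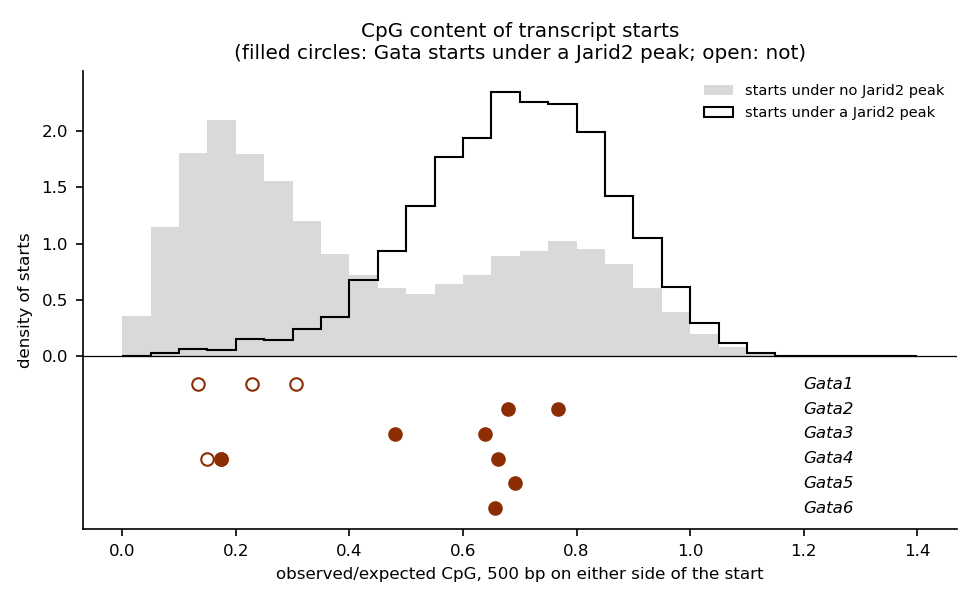
Observed over expected CpG within 500 bp on either side of each start (horizontal axis) as a density over all starts under a Jarid2 peak (line) or under none (grey), with the 13 starts of the Gata genes as circles below, filled when under a Jarid2 peak. The circles of the first (open) and second (filled) start of Gata4 coincide at 0.174 and 0.173, and the 3 starts of Gata1 are open and lie between 0.133 and 0.306.

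The surroundings and partners of the genes were then examined. Next to the covered members, Rpn1 and Dnajb8 (Gata2), Taf3 (Gata3), Neil2 and Blk (Gata4), BC066135 (Gata5) and Mib1 and Rbbp8 (Gata6) had no Jarid2 peak. Celf2, 2776 kb from Gata3, and Slco4a1, 122 kb from Gata5, had 1 each, with scores of 804 and 188. Among 13 genes that act with GATA factors in blood, 8 had a Jarid2 peak, led by Lyl1, Tal1, Runx1 and Fli1, and Gfi1b, Klf1, Ldb1, Nfe2 and Spi1 (named Sfpi1 in the annotation) had none. The same 8 had a Jarid2-K116me2 peak. Over all genes the shares were 18.1% and 16.0%. Among 17 partners in heart and endoderm, 14 had a Jarid2 peak, led by Isl1, Foxa1, Foxa2 and Hand2, and Dab2, Foxa3 and Hnf4a had none. Of these 17, 15 had a Jarid2-K116me2 peak, since Dab2 had a small one with a score of 149. The median Jarid2 length of the genes with a peak was 4.97 kb in the first list and 9.80 kb in the second, beside 2.32 kb for all genes. At shares of that size, few peaks would be counted in a list of 9 or 12 genes. None of 9 other genes with a GATA-type zinc finger (such as Trps1 and Gatad2a) had a peak of either antibody. Among 12 genes of differentiated blood, heart and liver cells, such as the globin gene Hbb-b1 and the atrial peptide gene Nppa, Epor alone had peaks. It had 3 for Jarid2 (highest score 158) and 1 for Jarid2-K116me2 (score 135).

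H3K27me3 was next compared between stages and lines, to ask whether the mark at the Gata genes changed upon differentiation and with the state of Jarid2. The deposited lists give broad peaks without fold enrichments, so the measure was the length under peaks within 5 kb of the gene. Tests were run with limma on log2(kb + 1) over all 8030 protein-coding genes with a peak in at least 2 of the 12 libraries, which are 36.2% of all. Gata2 to Gata6 were among them. Gata1, with a covered length of 0 in all 12 libraries, was not. The libraries differed widely. The lists held 1478 to 9836 peaks in ESC and 6811 to 14125 in EBs, with 1478 in WT ESC replicate 1. The total length under peaks was 33.6 and 55.0 Mb in KO EBs, 19.6 and 22.5 Mb in WT EBs and 23.2 and 37.2 Mb in K116A EBs. The lists hold no read numbers, and those that the study states elsewhere were not used as values here. By them, the WT ESC library with the fewest peaks was the most deeply sequenced ESC library. In EBs, however, both WT libraries had fewer reads than each KO and K116A library. Depth thus differed along with the line in the comparisons with WT EBs, and the 2 cannot be told apart there. The part of depth and of ChIP quality in the differences between the lists was not tested.

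In undifferentiated ESC, all 5 genes carried H3K27me3 in each KO and K116A library, but in WT replicate 1 only Gata3 and Gata6 did. For Gata2 the lengths were 0 and 8.46 kb in WT, 6.60 and 10.6 kb in KO, and 4.19 and 10.3 kb in K116A (replicates 1 and 2). For Gata3 they were 0.665 and 18.5 kb in WT, 12.5 and 22.1 kb in KO, and 11.5 and 20.4 kb in K116A. In each line, replicate 2 had the larger length, and the groups overlapped. Within each replicate number, KO and K116A both lay above WT at all 5 genes. The WT list also held the fewest peaks within each replicate number. It had 1478 against 3554 (KO) and 5183 (K116A) in replicate 1, and 8579 against 9836 and 9143 in replicate 2. The share of all genes with this order was not counted. Gata4 had 0 and 13.1 kb in WT, 4.16 and 15.3 kb in KO, and 6.33 and 15.5 kb in K116A. Gata5 had 0 and 3.94 kb, 1.78 and 5.33 kb, and 4.21 and 4.52 kb in the same order, and Gata6 had 2.75 and 11.6 kb, 7.12 and 13.9 kb, and 12.3 and 13.98 kb. None of the 5 genes was called between KO and WT ESC or between K116A and WT ESC (adjusted p = 1.0 for each, limma with Benjamini-Hochberg adjustment). The same test called 0 of the 8030 genes in both comparisons, with 34 and 51 genes at an unadjusted p under 0.05. Replicates 1 and 2 deviated alike in the 3 ESC groups (r = 0.49 to 0.59 across genes). In a fit on the 6 ESC libraries with the replicate number as a block, chosen after the values were seen, the differences were 0.68 to 1.63 for KO and 1.04 to 1.55 for K116A, with an adjusted p of 0.547 or more for each gene and 0 of 5366 genes called (279 and 376 at an unadjusted p under 0.05). The median over all genes was 0.48 and 0.43. Without WT ESC replicate 1, WT replicate 2 was set against both replicates of the other line. The differences between KO and WT then became negative for all 5 genes (-0.01 to -0.62). Those between K116A and WT became negative for Gata2, Gata3 and Gata4 (-0.31, -0.25 and -0.35) but stayed positive for Gata5 and Gata6 (0.12 and 0.16). Without WT ESC replicate 2, which leaves the sparsest library as the only WT ESC sample and takes the spread from the other groups, Gata2 and Gata3 were called higher in KO (adjusted p = 0.0197 and 0.0121), and Gata2, Gata3, Gata4 and Gata5 higher in K116A (0.0242, 0.0126, 0.0425 and 0.0393). In the same fits 7.01% and 7.05% of all genes were called higher and none lower.

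In EBs, the genes of the family diverged. Gata4 had no H3K27me3 peak in either KO library, 2.97 and 5.15 kb in the WT libraries, and 18.9 and 19.8 kb in the K116A libraries. Gata6 followed the same order, with 3.95 and 2.54 kb in KO, 11.9 and 7.56 kb in WT, and 16.0 and 16.0 kb in K116A. The means were 0, 4.06 ± 1.54 and 19.4 ± 0.646 kb for Gata4 and 3.24 ± 0.993, 9.75 ± 3.10 and 16.0 ± 0.033 kb for Gata6 (KO, WT and K116A, SD, n = 2). At both genes, the 3 groups did not overlap, but the share of all genes with such a separation was not counted. Gata3 had 11.5 and 10.8 kb in KO and 13.03 and 13.06 kb in WT, but 23.7 and 25.2 kb in K116A. Gata2 showed another order: 13.5 and 13.3 kb in KO and 11.5 and 14.2 kb in K116A were both above 7.21 and 7.29 kb in WT. Gata5 varied least, with 4.58 and 6.28 kb in KO, 3.70 and 4.23 kb in WT, and 4.42 and 6.63 kb in K116A. The plot of covered length by library shows these values.

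**Figure D4:**
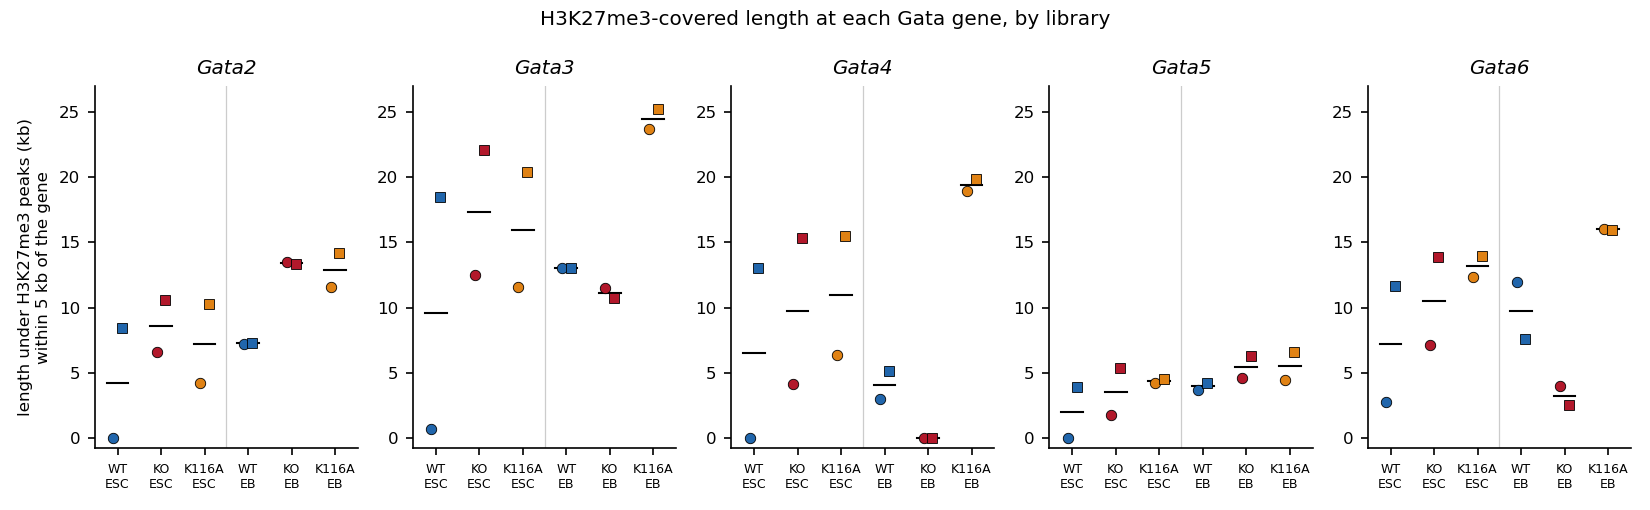
Length under H3K27me3 peaks within 5 kb of Gata2 to Gata6 (kb, vertical axis) in the 12 libraries, with replicate 1 as circles, replicate 2 as squares and the mean of the 2 as a line, for WT (blue), KO (red) and K116A (orange). In EBs, Gata4 and Gata6 are lowest in KO (0 and 2.54 to 3.95 kb) and highest in K116A (18.9 to 19.8 and 16.0 kb), while Gata2 is lowest in WT.

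The largest difference among the line comparisons was that of Gata4 between K116A and KO EBs, a comparison added after the values were seen. It amounted to 4.35 ± 1.12 on the log2(kb + 1) scale (SE, n = 2 per group, adjusted p = 0.0381, limma). In this comparison, 1.74% of the genes were called higher and 12.5% lower, with a median difference of -0.29 over all genes, so Gata4 went against the prevailing direction. The call was not robust to the choice of measure. It was lost with the highest peak score in place of the length (adjusted p = 0.0595), within 2 kb of a start (0.097) and with peaks of a score of 50 or more (0.105). It was also lost when any single library of KO EB, K116A EB, WT EB or K116A ESC was left out. The difference then lay between 4.32 and 4.38, but this range does not measure its stability. Leaving out a library of another group cannot change the difference, and Gata4 had no peak in either KO EB library. For the latter reason its positive sign was fixed in advance. Over all 22 fits the difference ranged from 2.33 (within 2 kb of a start) to 6.49 (highest score, on its own log2 scale). Gata6 differed by 2.02 ± 0.57 in the same comparison and missed the threshold (adjusted p = 0.0529), although 8 of its 21 alternatives passed it. With peaks of a score of 50 or more, the difference was 4.09. This cutoff removed all Gata6 peaks of the KO EB libraries, which scored 34.5 to 43.3. Gata3 differed by 1.07 ± 0.96 between K116A and KO EBs (adjusted p = 0.633).

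Against WT EBs, none of the 5 genes was called. For KO, the differences were -2.30 ± 1.12 for Gata4 (adjusted p = 0.253) and -1.33 ± 0.57 for Gata6 (0.183). Gata2, Gata3 and Gata5 differed by 0.81, -0.21 and 0.36. In the same comparison, 15.3% of all tested genes were called higher and 0.262% lower, and the median over all genes was 0.55. For K116A, the differences were 2.04 ± 1.12 for Gata4 (adjusted p = 0.794), 0.86 for Gata3, 0.74 for Gata2, 0.69 for Gata6 and 0.37 for Gata5, where 1.39% of all genes were called higher and 0.262% lower. After quantile normalization, which brings the median of all genes to -0.07, Gata6 was lower in KO EBs than in WT EBs (-2.06, adjusted p = 0.00998). It was also lower with peaks of a score of 50 or more (-3.34, adjusted p = 0.0161). This threshold removed all Gata6 peaks of the KO EB libraries, which scored 34.5 to 43.3. For Gata4, by contrast, this threshold removed the difference: the peaks of the WT EB libraries scored 40.3 to 48.7, so that both WT and KO were at 0. Without either WT ESC replicate, Gata4 was lower in KO EBs (adjusted p = 0.0488).

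These SEs include the spread between the ESC replicates, which was larger than that between the EB replicates. In a fit on the 6 EB libraries alone, chosen after the values were seen, the differences were the same but the SEs were smaller, and more of the genes were called. Gata4 and Gata6 were then lower in KO than in WT (adjusted p = 0.0114 and 0.0427), and Gata2 was higher (0.0333), where 1.6% and 20.1% of the 7010 genes were called in these directions. The Gata4 call rests on the WT peaks with scores under 50. Gata4 and Gata3 were higher in K116A than in WT (0.0369 and 0.0448), where 3.72% were called higher and 0.813% lower. Between K116A and KO, Gata4, Gata6 and Gata3 were higher (0.0045, 0.0176 and 0.0116), where 5.24% were called higher and 14.6% lower. Gata5 was called in none of the 3 comparisons, nor was Gata2 between K116A and either other line. With quantile normalization of these 6 libraries, Gata2 between KO and WT and Gata3 between K116A and WT no longer passed (adjusted p = 0.44 and 0.173). The plot of line differences sets both fits side by side.

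**Figure D5:**
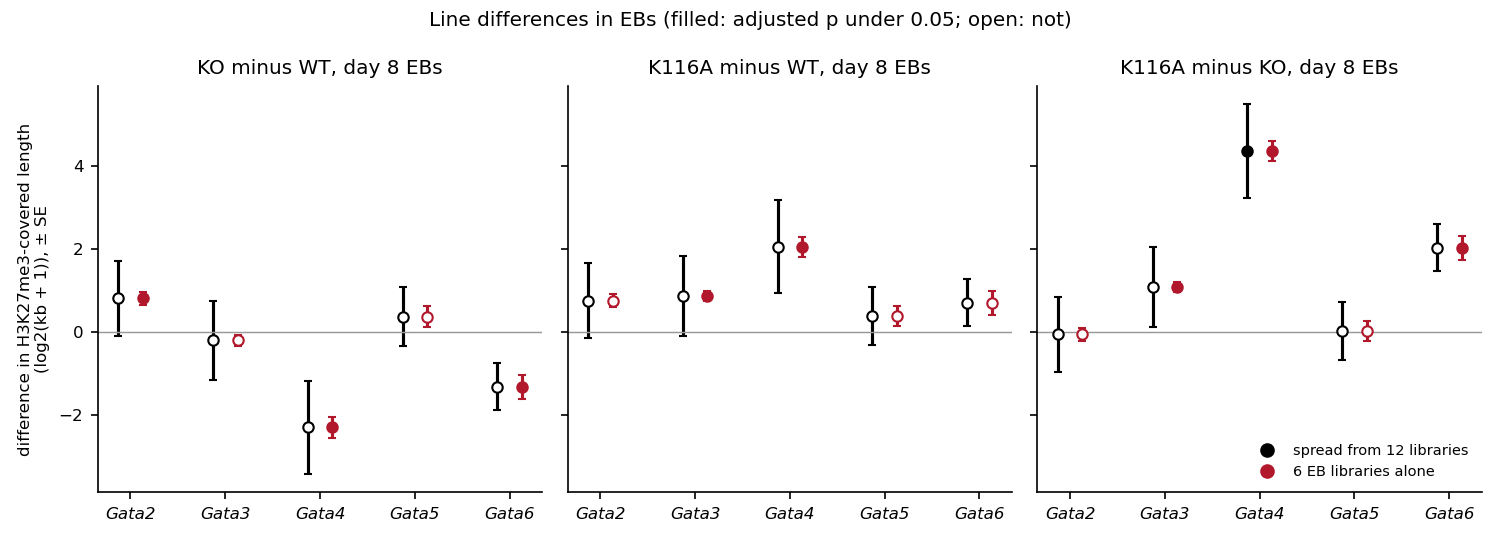
Differences in H3K27me3-covered length between lines in EBs (log2(kb + 1), ± SE) for Gata2 to Gata6, with the spread taken from the 12 libraries (black) or from the 6 EB libraries alone (red), filled where the adjusted p was under 0.05. Gata4 lies at -2.30, 2.04 and 4.35 in the 3 panels and is filled in black only in the third, while the points of Gata5 are unfilled throughout.

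Between stages, the mean of the 3 EB groups and that of the 3 ESC groups were compared. None of the 5 genes was called: the differences were 0.97 ± 0.52 for Gata2 (adjusted p = 0.201), 0.67 ± 0.41 for Gata5 (0.239), 0.47 ± 0.55 for Gata3 (0.525), -0.17 ± 0.33 for Gata6 (0.701) and -0.64 ± 0.65 for Gata4 (0.457). In the same comparison, 23.3% of the genes were called higher and 0.946% lower, and the median over all genes was 0.51. After quantile normalization, 1186 genes were called higher and 953 lower in place of 1874 and 76, and Gata6 was lower in EBs (-0.93, adjusted p = 0.0112). Without WT ESC replicate 2, Gata2, Gata3 and Gata5 were called higher in EBs (adjusted p = 0.00699, 0.0127 and 0.0198), as were 40.1% of all genes. The lines took different courses. From ESC to EBs, both replicates of Gata3, Gata4 and Gata6 moved below the ESC range in KO and above it in K116A. The share of all genes with such opposite courses was not counted, so this is a description of the values. The difference between these courses was 4.09 ± 1.59 for Gata4 (adjusted p = 0.255), 1.66 ± 0.80 for Gata6 (0.409) and 1.18 ± 1.36 for Gata3 (0.96), and was thus not called. Of all genes, 0.324% were called in this direction and 4.3% in the opposite one.

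The outline of the domains also changed. At Gata4, the H3K27me3 domain of K116A EBs reached from -12.7 to 7.17 kb relative to the third start in replicate 2, and from -12.3 to 6.66 kb in replicate 1. In WT EBs, peaks lay from -3.92 to -0.947 kb in replicate 1 and from -4.69 to -0.811 and 1.48 to 2.75 kb in replicate 2, and the start itself was uncovered. At Gata6, the start lay under a peak in WT EB replicate 1 and in both K116A EB libraries, but in a gap in WT EB replicate 2 and in both KO EB libraries. The second start of Gata3 was another interruption: it lay under H3K27me3 in KO ESC replicate 2 only. In both K116A EB libraries it fell in a gap from 10.1 to 11.6 kb downstream of the first start, although Jarid2 and Jarid2-K116me2 covered it. Nearly the same gap lay in WT ESC replicate 2 (10.1 to 11.6 kb) and in K116A ESC replicate 2 (10.0 to 11.6 kb), so it was not new in EBs. The third start of Gata4 was under the mark in 5 of 12 libraries, the start of Gata5 in 10 and the first start of Gata2 in 10.

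The distal Jarid2 peak of Gata4 differed from the other peaks of the family, since no H3K27me3 peak overlapped it in any of the 12 libraries. The other 10 Jarid2 peaks overlapped H3K27me3 in 1 to 12 libraries. Over the whole Jarid2 list, 13.4% of the peaks overlapped no H3K27me3 peak. Among the 786 peaks with a score at least as high as the distal Gata4 peak, there were only 2, this one and a peak of 6615 bp at Sox11, which encodes a transcription factor of neural progenitors. The peak was singled out after its values were seen, and the count is a description. The nearest edge of an H3K27me3 domain, in K116A EB replicate 2, lay at -12.7 kb relative to the third start, whereas the distal peak ended at -19.5 kb. The 3 lines lack endogenous Jarid2 or carry it on a BAC, and the Jarid2 peaks come from E14 ESC, so differences of cell line and of antibody cannot be told apart here.

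Finally, the genes with the most similar H3K27me3 profile over the 12 libraries were listed for each member, by Euclidean distance of log2(kb + 1). For Gata6, the closest was Tbx20 (distance 1.24), which encodes a heart transcription factor and had a Jarid2 length of 10.6 kb, followed by Six2 and Prdm6. For Gata4, Evx1 came first (1.66), before Lgr5 and Gm4861, the last without a Jarid2 peak. Gata3 was closest to Rtn4rl2 (1.13), Hoxa6 and Sp9, and Gata2 to Sox21 (0.694), Ascl2 and Mdga2. For Gata5, the distance of 0 to Gm14318 reflects that this model overlaps the gene and takes the same peaks, and Gpr25 (0.556) and Emilin3 followed. In EBs, none of the 15 tested partners in heart and endoderm was called between any lines, with medians of 0.03 (KO minus WT), 0.27 (K116A minus WT) and 0.14 (K116A minus KO). Of the 12 tested partners in blood, Klf1 and Spi1 were higher in KO than in WT (by 1.76 and 2.87, adjusted p = 0.00575 and 0.0182) and lower in K116A than in KO (adjusted p = 0.00597 and 0.0413), and none was called between K116A and WT. Over all genes, 15.3% were higher in KO than in WT and 12.5% lower in K116A than in KO, so 2 of 12 is close to the background. Both are genes without a Jarid2 peak. Klf1 had an H3K27me3 peak in only 2 of the 12 libraries and did not differ between K116A and WT EBs. It passed the filter through KO EB libraries alone, so its calls, also between stages, rest on the same libraries. The medians of the list were 0.14, 0.14 and -0.31. From ESC to EBs, Klf1 and Cbfa2t3 of this list were called higher (adjusted p = 0.0383 and 0.0423), as were Trps1 among 2 tested zinc finger genes (0.0427) and Klf4 among 3 tested genes of the pluripotent state (0.00024), where 23.3% of all genes were called higher, with no call among the heart and endoderm partners or the 3 tested genes of differentiated cells.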

How the data were processed

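Peak lists of 14 of the 16 samples were analysed, and the 2 inputs had no list of their own. The authors sequenced single reads of 100 bp, aligned them to mm9 with Bowtie2 2.1.0 and removed duplicates with PicardTools. They called Jarid2 and Jarid2-K116me2 peaks with MACS 1.4.2 against input at default settings (FDR of 0.15%), and broad H3K27me3 peaks with MACS2 2.0.10 (FDR of 5%), for each sample separately and without pooling. The tools and versions follow the submitters' processing notes, which also name HOMER 3.17. The deposited files hold the position of each peak and a score, with no read counts or fold enrichments, and the read numbers that the study states elsewhere were not used, so no value here is scaled to depth. The scale of the score in the H3K27me3 lists is not given in the sources used here, and the study's methods rate the replicate 2 libraries as the better ones. All 103531 peaks lay within the chromosome lengths of NCBIM37.

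Peaks were assigned with a window of 5 kb and an overlap of at least 1 bp. The planned H3K27me3 measure, the highest fold enrichment, and the planned threshold on q could not be used, so the covered length as log2(kb + 1), planned as an alternative, became the main measure, and the highest score and a score of 50 or more served as alternatives. limma 3.58.1 (R 4.3.3) was fitted to 6 groups (6 residual degrees of freedom), with a threshold of 0.05 after Benjamini-Hochberg adjustment over all genes tested. The p-values measure the spread between 2 biological replicates per group. The limma fit and the computation of covered lengths were tested on simulated data, with Python 3.11.15, numpy 2.4.6 and pandas 2.3.3. Named genes were all 6 members, their nearest protein-coding neighbours, the 4 genes of each list with the highest Jarid2 score, genes of a list without a Jarid2 peak where 5 or fewer, and the 3 genes closest to each member (by covered length, since the planned fold enrichment was not in the lists). Members and lists were chosen with earlier results of these data known. Alternatives were other windows, score thresholds, pseudocounts, filters and scalings, the replicate block, leaving out each library, and the EB or ESC libraries alone. No sequence of Gata6 is reported here.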

Additional observations from a re-analysis of the deposited data

Results flagged for a closer look

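From ESC to EBs, H3K27me3 at 3 Gata genes took opposite courses in the KO and K116A lines, with both replicates of each line moving beyond the range of its ESC libraries. How many of all genes did the same was not counted. The difference of the 2 courses (K116A minus KO, log2(kb + 1)) was 1.18 for Gata3 (adjusted p = 0.96), 4.09 for Gata4 (adjusted p = 0.255) and 1.66 for Gata6 (adjusted p = 0.409) in the limma test of the interaction, which none passed. Without single libraries, these values ranged from 0.80 to 1.57, from 3.26 to 4.92 and from 1.22 to 2.10. The total covered length was 33.6 and 55.0 Mb in the KO EB libraries and 23.2 and 37.2 Mb in the K116A EB libraries, and the part of this in the result was not tested.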

How the results depend on the processing

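Of 58 peak counts and covered lengths at the members under other windows and score thresholds, 54 stayed within 1.5 times. With the gene body only, the covered length fell for Gata5 (2.61 kb for Jarid2 and 1.80 kb for Jarid2-K116me2) and Gata6 (8.63 and 5.81 kb). Counts of genes called with H3K27me3 moved more. In place of 1950 genes between EBs and ESC, 693 were called within 2 kb of a TSS, 514 by the exact permutation test (smallest p 0.00216), 1224 without the filter, 980 with a score of 50 or more, 402 in replicate 2 alone and 948 to 3303 when 1 library was left out (over 1.5 times away for either replicate of K116A ESC and WT EB and for WT ESC replicate 2). In place of 1246 between KO and WT EBs, the counts were 469 within 2 kb of a TSS, 790 by score, 673 with a score of 50 or more, 534 after quantile normalization and 646 to 1610 without 1 library (over 1.5 times away for either WT EB replicate, 646 and 666). In place of 133 between K116A and WT EBs, they were 318 and 636 in the EB libraries alone (the latter with quantile normalization), 220 by score and 5 to 276 without 1 library, the lowest without WT EB replicate 2 and over 1.5 times away for either replicate of K116A EB, K116A ESC, KO EB and WT EB. Between K116A and KO EBs (1143), they were 410 within 2 kb of a TSS, 752 by score, 607 with a score of 50 or more and 701 to 1474 without 1 library, the lowest without K116A EB replicate 1. Between KO and WT ESC (0), they were 8 by score, 1 after quantile normalization and 0 to 563 without 1 library, the highest without WT ESC replicate 2, and between K116A and WT ESC (0) 14 by score, 3 without the filter, 1 after quantile normalization and 0 to 566, the highest without the same library. The share of higher calls moved from 96.1% to 55.4% (EB against ESC), from 98.3% to 75.1% (KO against WT EB), from 84.2% to 60.6% (K116A against WT EB) and from 12.2% to 41.9% (K116A against KO EB) with quantile normalization. The causes were not tested.

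With the replicate block, 3126 genes were called between EBs and ESC, 1717 between KO and WT EBs, 192 between K116A and WT EBs and 1534 between K116A and KO EBs. Gata6 passed between K116A and KO EBs (2.02, adjusted p = 0.0439), Gata4 remained called (adjusted p = 0.0133), and no other call of a Gata gene changed. Over all stages the replicate numbers were not taken to pair the samples, since deviations correlated by more than 0.1 in 5 of 15 pairs of groups (r from -0.13 to 0.59). The 3 pairs of ESC groups were among these 5 (0.49 to 0.59), and the blocked fit of the ESC libraries alone called 0 genes, as did the same libraries without the block.

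The differences whose direction turned had not been called. These were Gata3 between EBs and ESC (-0.27 after quantile normalization, -0.38 in replicate 2 alone), Gata5 between KO and WT EBs (-0.041 within 2 kb of a TSS, -0.26 after quantile normalization, -0.28 with it in the EB libraries alone) and between K116A and WT EBs (-0.0094 with quantile normalization, in all and in the EB libraries), Gata3 between K116A and WT ESC (-0.11 by score), Gata2 between K116A and KO EBs (0.15 and 0.14 with quantile normalization), and the interaction for Gata2 (-0.052) and Gata5 (0.39) by score. Without 1 library, the differences ranged as follows: EB minus ESC, Gata3 -0.13 to 1.06 and Gata6 -0.46 to 0.12. KO minus WT ESC ranged from -0.013 to 3.23 for Gata2, -0.14 to 3.41 for Gata3, -0.62 to 3.20 for Gata4, -0.24 to 2.07 for Gata5 and -0.20 to 1.55 for Gata6. K116A minus WT ESC ranged from -0.31 to 2.93 for Gata2, -0.25 to 3.30 for Gata3 and -0.35 to 3.46 for Gata4. The lowest value of all these came without WT ESC replicate 1 (for Gata6 between stages too) and the highest without WT ESC replicate 2. K116A minus KO EB ranged from -0.20 to 0.076 for Gata2 and from -0.23 to 0.26 for Gata5, and the interaction from -0.33 to 0.79 for Gata2 and from -0.94 to 0.25 for Gata5. Without the filter, Gata4 between K116A and KO EBs had an adjusted p of 0.178. The fit without a filter included genes with no spread and its calls are unreliable. The thresholds on q and the fold enrichment were not run, since the lists hold neither.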
